A study of Mus musculus with 23 samples.

Results

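The transcription factors that maintain naive pluripotency were followed in mouse embryonic stem cells (ESCs) carrying a conditional allele of Kdm2b. The 10 genes are Pou5f1, Sox2, Nanog, Klf4, Klf2, Esrrb, Zfp42, Tbx3, Tfcp2l1 and Prdm14. They were taken by name, not by a cutoff on their values, from the 23369 gene names in the expression tables. Earlier results of these data were known when the list was chosen. All 10 were measured in every sample. POU5F1 and SOX2 bind DNA as a pair and, together with NANOG, occupy the enhancers of one another's genes. ESRRB, KLF2, KLF4, TBX3 and TFCP2L1 join this core in the naive state, the ground from which an ESC can form every embryonic lineage, and several of them are reached by the LIF and WNT pathways. PRDM14 restrains FGF signalling and the de novo DNA methyltransferases, and Zfp42, which encodes REX1, is widely used as a marker of the naive state.

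KDM2B recognises non-methylated CpG-rich DNA through a ZF-CxxC domain and is a subunit of a variant Polycomb repressive complex 1. The study asked what becomes of Polycomb occupancy and gene expression when that domain is lost. Both groups were Kdm2b fl/fl ESCs labelled as the MS12 line, with Cre fused to a modified oestrogen receptor expressed from 1 Rosa26 allele, at passages 10 to 20. The 3 untreated samples received no tamoxifen, and the 3 tamoxifen samples received 4-hydroxytamoxifen for 72 hr, which activates the Cre so that the floxed exon is removed. The dose is 800 nM in the sample labels and 800 µM in the series text. Cells of both groups were grown in 15% serum and 10 ng/mL LIF on mitotically inactive mouse embryonic fibroblasts, and were kept apart from these feeders from the night before treatment. PolyA+ RNA was sequenced from biological triplicates as directional paired-end libraries, and the groups share replicate numbers 1 to 3. Samples were grouped by their labels. The file names give the reverse assignment, under which each difference below would keep its size and take the opposite sign.

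Each value is an FPKM, the fragments assigned to a gene scaled by the length of the gene and by the mapped fragments of the library, so that levels of different genes can be compared. Read counts are not given in these tables. Single-fragment steps in 1803 low genes placed the depth of the other 5 samples at 0.655 to 0.954 of that of untreated replicate 1, with tamoxifen replicate 3 the shallowest. Each depth rested on the most common step, shared by 4.49% to 8.32% of these genes, the fewest in tamoxifen replicate 3. Loci shorter than 300 bp held 23.9% and 25.6% of the summed FPKM in replicate 1 of the untreated and tamoxifen groups, but 42.3% to 67.8% in the other 4 samples. This share followed replicate number more than treatment, and replicate number was carried through the comparisons.

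The targeted gene was looked at first. Kdm2b stood at 26.9, 21.6 and 27.7 FPKM in untreated replicates 1, 2 and 3 and at 19.9, 21.9 and 25.04 FPKM in tamoxifen replicates 1, 2 and 3. The groups overlapped, and the log2 fold change of -0.19 (SE 0.21, n = 3 per group) did not pass the test (limma adjusted p = 0.999). A value for the whole gene does not resolve a single deleted exon, so these values check the labels in neither direction. As for the labelled cell type, Dppa5a (1401 to 3534 FPKM) and Utf1 (172 to 363 FPKM), both typical of ESCs, were abundant in all 6 samples.

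The members spanned a wide range of levels. Averaged over the 6 samples, Pou5f1 was the most abundant at 576 ± 164 FPKM (SD, n = 6), above 99.4% of the 12997 genes tested. Nanog at 174 ± 39.3 FPKM and Sox2 at 168 ± 32.1 FPKM came next, and each exceeded the other in 3 of 6 samples. Klf2 (86.3 ± 27.2 FPKM) and Esrrb (76.2 ± 12.3 FPKM) also could not be ordered, with Klf2 the higher in 4 of 6 samples. The same held for Zfp42 (30.9 ± 6.62 FPKM) and Klf4 (28.3 ± 2.78 FPKM), which exchanged places in 3 of 6. Below them, Tfcp2l1 (16.8 ± 2.35 FPKM), Tbx3 (8.98 ± 1.96 FPKM) and Prdm14 (3.90 ± 1.55 FPKM) kept their order in 6 of 6 samples. The least abundant member was also the one with the widest span, since Prdm14 in its highest sample was 2.55 times its lowest, compared with 1.27 times for Klf4.

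For the comparison of treatments, limma was fitted to log2(FPKM + 0.1) across all 12997 genes, first without and then with replicate number as a block, and p-values were adjusted over all genes. The block removes what samples of the same number share. It was relevant here because same-numbered samples deviated together from their group means over all genes (r = 0.544, 0.605 and 0.506). Deviations within a group sum to 0, so the negative values between differently numbered samples (r = -0.105 to -0.379) add no separate support. Without the block, 0 of the 10 members passed an adjusted p of 0.05 in limma and 2 had an unadjusted p under 0.05. Among all genes tested, 0.0231% passed as higher and 0.00769% as lower, and 4.79% had an unadjusted p under 0.05. With the block, Prdm14 and Klf2 were higher after tamoxifen and 0 members were lower, while 5 had an unadjusted p under 0.05. The background with the block was 4.33% of genes higher and 6.06% lower, with 29.8% at an unadjusted p under 0.05. Counted by samples alone, in Nanog, Klf2 and Prdm14 all tamoxifen samples lay above all untreated ones, and in Tfcp2l1 all lay below, against 3.09% of all genes above and 5.40% below.

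**Figure D1:**
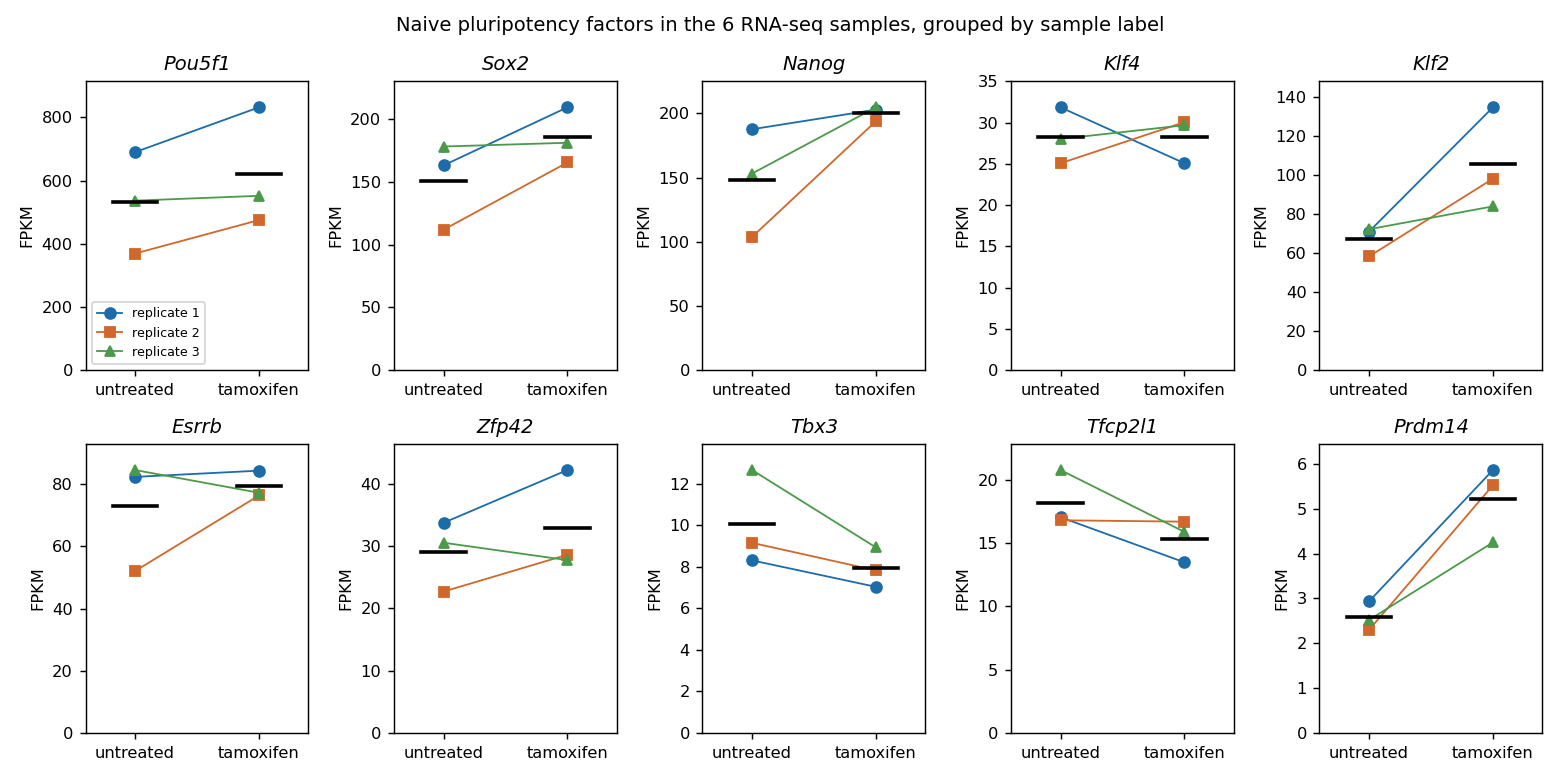
FPKM of each of the 10 factors (y axis, linear, from 0) in the untreated and tamoxifen groups. Each symbol is a sample, lines join samples with the same replicate number, and black bars are group means of 3. Prdm14, Klf2 and Nanog have all 3 tamoxifen samples above the untreated ones, Tfcp2l1 has them below, and the other 6 overlap.

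Of the central trio, Pou5f1 differed more between replicate numbers than between treatments. The gene, on mm9 chromosome 17 from 35642977 to 35647722 (plus strand), measured 690, 369 and 537 FPKM in untreated replicates 1, 2 and 3 and 832, 475 and 552 FPKM in tamoxifen replicates 1, 2 and 3. The highest untreated sample exceeded 2 of the tamoxifen samples, so the groups overlapped, although each tamoxifen sample was above its own number. Group means were 532 ± 160 and 620 ± 188 FPKM (SD, n = 3 each), a log2 fold change of 0.23 (SE 0.36) that failed without the block (limma adjusted p = 0.999) and with it (0.203, 95% interval of the log2 difference -0.02 to 0.47). Between replicate numbers the mean log2 level spanned 0.85, and this passed an F test (limma adjusted p = 0.00433). The call between numbers was lost with quantile normalization (limma F test adjusted p = 0.0601) and with reference gene scaling (0.196), so it depended on the scaling of the libraries.

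Sox2, the DNA-binding partner of Pou5f1, gave 163, 112 and 178 FPKM in the untreated samples and 209, 165 and 181 FPKM in the tamoxifen samples. Here too the groups overlapped and the higher value within every number belonged to tamoxifen, but replicate 3 differed by 0.02 on the log2 scale only. The log2 fold change was 0.32 (SE 0.26 without the block) with a limma adjusted p of 0.128 under the block. The Sox2 gene (mm9, chromosome 3, 34548927 to 34551382, plus strand) lies inside the locus of the noncoding gene Sox2ot, which was at 0.0933 to 0.365 FPKM over the 6 samples.

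Nanog, the homeodomain factor known to fluctuate between individual ESCs in serum, separated the groups without passing the test. At this locus (mm9, chromosome 6, 122657586 to 122663796, plus strand) the untreated samples were at 188, 104 and 153 FPKM and the tamoxifen samples at 203, 194 and 205 FPKM. All tamoxifen samples were the higher, and their spread was narrow: 201 ± 5.78 FPKM, compared with 148 ± 42.2 FPKM in untreated cells (SD, n = 3 each). The log2 fold change of 0.48 had a 95% interval of 0.14 to 0.82 under the block and a limma adjusted p of 0.0792. Replicate number 2 carried most of it, with a difference of 0.90 on the log2 scale, whereas number 1 differed by 0.11 and number 3 by 0.42.

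The Krüppel-like zinc finger factors Klf2 and Klf4, which can stand in for one another in ESC self-renewal, are considered together. Klf2 (mm9, chromosome 8, 74842961 to 74845553, plus strand) measured 70.9, 58.3 and 72.2 FPKM in untreated replicates 1, 2 and 3 and 135, 98.0 and 83.9 FPKM in tamoxifen replicates 1, 2 and 3. The groups did not overlap, and the difference was largest in number 1 (0.92 on the log2 scale) and smallest in number 3 (0.22). Klf2 thus rose 1.55-fold with the block (log2 fold change 0.63, SE 0.14, limma adjusted p = 0.0318), but not without it (adjusted p = 0.879). The call was lost with the block when replicate number 2 was left out (log2 fold change 0.57, adjusted p = 0.197), and also after quantile normalization (0.0513), reference gene scaling (0.0751) or with no filter on low values (0.0874). Without number 2, 0.277% of all genes were called higher, beside 4.33% with all numbers. Over those of the 29 alternatives that gave an adjusted p, it ran from 0.00145 to 1.0.

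Klf4 measured 31.9, 25.1 and 28.0 FPKM in the untreated samples and 25.1, 30.1 and 29.7 FPKM in the tamoxifen samples. These ranges were almost the same, with group means of 28.3 ± 3.40 and 28.3 ± 2.78 FPKM (SD, n = 3 each). Number 1 was at -0.34 on the log2 scale, tamoxifen minus untreated, and number 2 at 0.26, and the 95% interval of the difference under the block was -0.30 to 0.30. The ratio of Klf2 to Klf4 cannot be moved by a single factor per library, although quantile normalization can move it. This ratio was 2.23, 2.32 and 2.57 in untreated replicates 1, 2 and 3 and 5.37, 3.26 and 2.83 in the tamoxifen replicates. It was higher in all tamoxifen samples, a description of a pair picked after its values were seen.

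Promoter sequence is shown for Klf2, Klf4 and Nanog because KDM2B binds CpG-rich DNA and these genes set a CpG-rich promoter beside a CpG-poor one in 2 genes whose groups did not overlap (Klf2 and Nanog), and a CpG-rich one in a gene whose groups did (Klf4). The windows are those of RefSeq on GRCm38.p6, 250 bases before and 50 after the start of the transcript, read 5′ to 3′ on the strand of the gene, with each CpG in capitals. They lie at chr8:72318812-72319111 (plus strand), chr4:55532426-55532725 (minus strand) and chr6:122707239-122707538 (plus strand, the first of the 2 Nanog starts).
Klf2: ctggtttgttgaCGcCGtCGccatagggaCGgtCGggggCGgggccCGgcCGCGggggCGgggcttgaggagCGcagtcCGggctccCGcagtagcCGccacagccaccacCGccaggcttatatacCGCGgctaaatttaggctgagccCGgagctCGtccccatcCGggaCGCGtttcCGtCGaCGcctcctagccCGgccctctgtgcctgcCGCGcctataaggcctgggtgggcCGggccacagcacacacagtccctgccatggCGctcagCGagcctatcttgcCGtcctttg
Klf4: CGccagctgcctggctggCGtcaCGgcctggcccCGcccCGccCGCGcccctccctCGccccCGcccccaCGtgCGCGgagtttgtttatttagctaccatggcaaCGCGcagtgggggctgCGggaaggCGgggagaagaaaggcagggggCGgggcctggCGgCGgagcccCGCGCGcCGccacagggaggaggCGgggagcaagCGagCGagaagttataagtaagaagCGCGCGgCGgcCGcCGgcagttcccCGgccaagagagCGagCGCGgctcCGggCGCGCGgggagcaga
Nanog: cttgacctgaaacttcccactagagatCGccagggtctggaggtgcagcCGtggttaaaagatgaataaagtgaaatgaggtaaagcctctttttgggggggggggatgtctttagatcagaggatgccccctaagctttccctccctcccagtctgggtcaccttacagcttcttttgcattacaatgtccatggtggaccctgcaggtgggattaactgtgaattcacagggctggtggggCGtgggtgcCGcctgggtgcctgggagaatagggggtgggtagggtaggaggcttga
Klf4 has 40 CpG and Klf2 has 32, while Nanog has 4. The observed over expected CpG ratio was 0.974 for Klf4, 0.889 for Klf2 and 0.192 for Nanog, beside a median of 0.384 over all 32851 windows. Windows were held by 8 of the 10 members, and 4 of their 11 windows were CpG-rich (ratio of at least 0.6 and GC of at least 55%), namely those of Klf2, Klf4, Sox2 and Tfcp2l1, compared with 30.3% of all windows. The CpG-rich group thus held 1 gene that was higher with the block (Klf2), and 3 that did not pass the test (Klf4, Sox2 and Tfcp2l1). Prdm14, the other member higher with the block, and Tbx3 had no window and so could not be classed. Binding of KDM2B at these windows was not analysed here.

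The same windows were searched on both strands for short motifs of the factors themselves. An octamer (ATGCAAAT, the POU motif) and a KLF motif (CCACACCC) each matched 1 of the 11 windows, in both cases that of Zfp42, and 1.74% and 3.56% of all windows. An ESRRB motif (TCAAGGTCA), a T-box motif (AGGTGTGA) and a STAT motif (TTCCNGGAA) matched 0 of the 11, and 0.423%, 1.28% and 1.15% of all windows. With so few windows and such rare motifs, these counts are a description of the sequence only.

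Esrrb, an orphan nuclear receptor downstream of GSK3 and TCF7L1, was at 82.4, 52.1 and 84.6 FPKM in the untreated samples and at 84.4, 76.4 and 77.3 FPKM in the tamoxifen samples. Only untreated replicate 2 stood apart, below the other 5 samples. The log2 fold change of 0.15 (SE 0.25) did not pass (limma adjusted p = 0.483 with the block), and it was -0.07 when that sample was left out.

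Zfp42, a zinc finger gene controlled by POU5F1 and SOX2, was at 33.8, 22.7 and 30.6 FPKM in untreated replicates 1, 2 and 3 and at 42.2, 28.6 and 27.8 FPKM in tamoxifen replicates 1, 2 and 3. The groups overlapped, and number 3 went the other way from numbers 1 and 2 (-0.14 beside 0.32 and 0.33 on the log2 scale). Treatment did not pass (limma adjusted p = 0.363 with the block), but replicate number did (adjusted p = 0.0282), as it did for Pou5f1. The call for replicate number was likewise lost with quantile normalization (limma F test adjusted p = 0.0788) and with reference gene scaling (0.403). Over the 6 samples Zfp42 and Pou5f1 moved most closely together of any pair of members (r = 0.964 on the log2 scale, n = 6 samples that share replicate effects and scaling).

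Tbx3 and Tfcp2l1, a T-box repressor and a CP2 family factor that both lie downstream of LIF, were the members with lower values after tamoxifen. Tbx3 was at 8.30, 9.15 and 12.7 FPKM in the untreated samples and at 7.03, 7.82 and 8.93 FPKM in the tamoxifen samples. It was lower within each number, yet tamoxifen replicate 3 exceeded untreated replicate 1, so the groups overlapped. The log2 fold change was -0.32 (95% interval under the block -0.58 to -0.06), and it did not pass after adjustment (limma adjusted p = 0.112). Replicate number did (limma adjusted p = 0.0436), with number 3 the highest and number 1 the lowest, whereas Pou5f1 was highest in number 1.

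Tfcp2l1 was at 17.0, 16.8 and 20.8 FPKM in untreated replicates 1, 2 and 3 and at 13.5, 16.7 and 15.9 FPKM in tamoxifen replicates 1, 2 and 3. The groups did not overlap, but by a narrow margin, since number 2 differed by -0.01 on the log2 scale. The log2 fold change of -0.24 (95% interval under the block -0.50 to 0.02) did not pass (limma adjusted p = 0.191). Tbx3 and Tfcp2l1 followed each other over the samples (r = 0.903, n = 6) and ran opposite to Prdm14 (r = -0.722 and -0.703).

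Prdm14 showed the largest relative difference of the 10. It was at 2.93, 2.30 and 2.52 FPKM in the untreated samples and at 5.86, 5.52 and 4.25 FPKM in the tamoxifen samples. All tamoxifen samples were the higher, with differences of 0.98, 1.23 and 0.73 on the log2 scale in numbers 1, 2 and 3. Prdm14 rose 1.97-fold with the block, from 2.58 ± 0.323 to 5.21 ± 0.851 FPKM (SD, n = 3 each; log2 fold change 0.98, SE 0.14, limma adjusted p = 0.0105), while the adjusted p was 0.433 without it. With the block the call was lost when replicate number 2 was left out (log2 fold change 0.85, adjusted p = 0.108), in a fit that called 0.277% of all genes higher. Over the 29 alternatives its log2 fold change stayed between 0.73 and 1.12 and its adjusted p ran from 0.000156 to 1.0. The gene lies on mm9 chromosome 1, 13103509 to 13117244, minus strand.

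**Figure D2:**
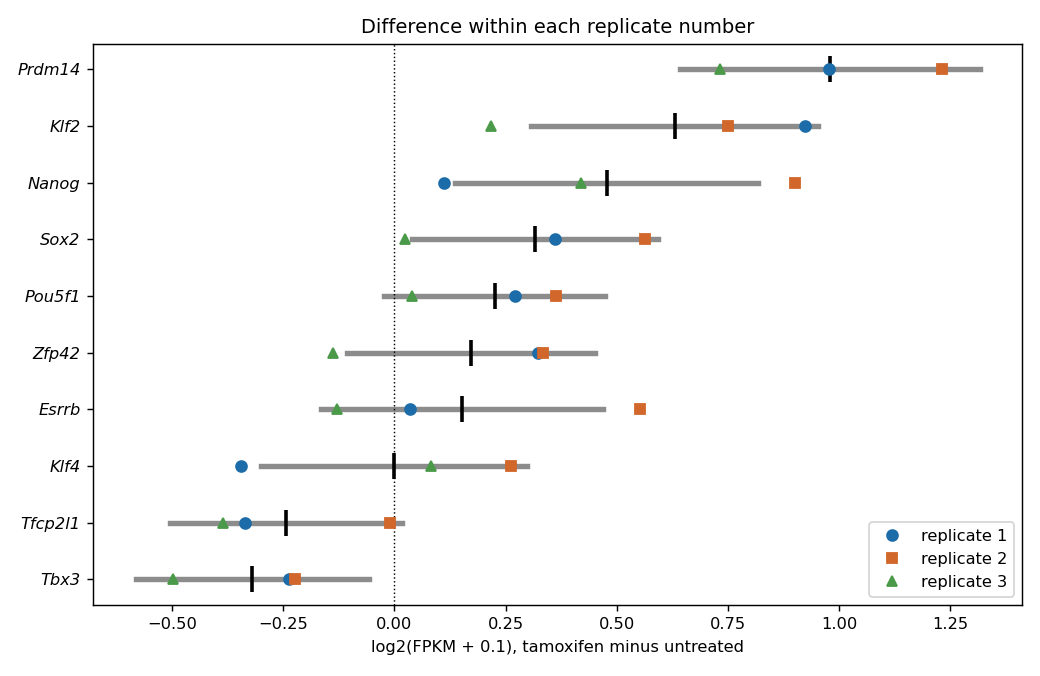
Difference of log2(FPKM + 0.1), tamoxifen minus untreated (x axis), for each factor (y axis). Symbols are replicate numbers, black ticks are the mean of 3 and grey bars the 95% interval of the fit with the replicate block, unadjusted for the number of genes. Prdm14 (0.98) and Klf2 (0.63) lie farthest to the right and Tbx3 (-0.32) farthest to the left.

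The members differed in the sign of their fold changes. Their median log2 fold change was 0.20, beside -0.02 over all genes tested and 0.12 over the 1635 tested genes with a mean of at least 50 FPKM. A positive difference was found in 7 of 10, and 8 of 10 lay above the median of all genes. Because RNA came from whole cultures, less RNA of a gene per cell and fewer cells expressing it cannot be told apart.

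Most of the extreme values lay in a pair of libraries. Untreated replicate 2 had the lowest value of 7 members (Pou5f1, Sox2, Nanog, Klf2, Esrrb, Zfp42 and Prdm14), and tamoxifen replicate 1 had the highest value of 5 and the lowest of the other 3. The mean of the members, each centred on the log2 scale, was 0.03, -0.41 and 0.02 in untreated replicates 1, 2 and 3 and 0.24, 0.07 and 0.05 in the tamoxifen replicates. Without untreated replicate 2 the median log2 fold change of the members was -0.005. The share of FPKM in loci under 300 bp was highest in that library, at 67.8%. Its part in the low values was not tested.

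Replicate number passed the F test for 3 members, Pou5f1, Zfp42 and Tbx3, beside 62.8% of all genes. With reference gene scaling the members that passed were Klf4, Tbx3 and Tfcp2l1 (limma F test adjusted p = 0.0311, 0.00513 and 0.00472), beside 64.0% of all genes. The range between the number means exceeded the treatment difference for 7 members, among them Pou5f1 (0.85 beside 0.23 on the log2 scale) and Zfp42 (0.56 beside 0.17). For Prdm14 it was the other way round (0.33 beside 0.98), as it was for Klf2 (0.37 beside 0.63) and narrowly for Nanog (0.46 beside 0.48). Summed FPKM of 14 fibroblast genes, which would mark the feeder cells, was lowest in number 1 of both groups (284 and 345) and 417 to 528 in the other 4 samples. Pou5f1 was highest in the samples where that sum was lowest. The part of feeder cells in these levels was not tested.

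The sign of several members changed with the scaling of the libraries. With TPM, in which every sample sums to the same total, the median over all genes moved to 0.08, and with the geometric mean of 6 reference genes (Actb, Gapdh, Hprt, Tbp, Ppia and Pgk1) it moved to -0.27. After reference gene scaling Pou5f1 (-0.03), Esrrb (-0.10) and Zfp42 (-0.08) turned negative, and Klf4 stood at -0.26. Relative to the median of all genes under that scaling, Pou5f1 stood at 0.24 and Tbx3 at -0.30. Tbx3 (-0.57, limma adjusted p = 0.0207) and Tfcp2l1 (-0.50, adjusted p = 0.0220) passed as lower with the block under this scaling, in which 23.8% of all genes were lower, so these 2 of 10 did not exceed the background. They stand beside ranges of 0.0207 to 1.0 and 0.0220 to 1.0 over their 29 alternatives. Among the reference genes, the glycolytic enzyme gene Pgk1 itself rose with the block (254, 110 and 132 FPKM to 351, 182 and 168 FPKM, limma adjusted p = 0.0253).

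**Figure D3:**
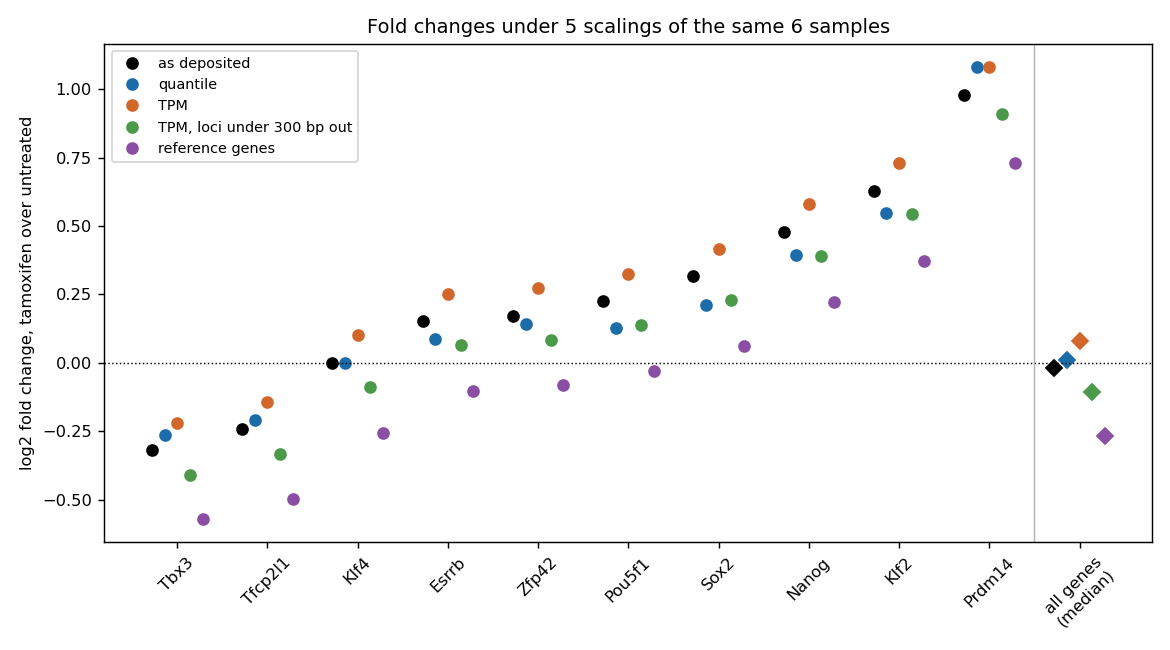
Log2 fold change, tamoxifen over untreated (y axis), of each factor under 5 scalings of the same 6 samples (colours), with the median of all genes tested as diamonds at the right. Prdm14, Klf2, Nanog and Sox2 stay above 0 and Tbx3 and Tfcp2l1 below 0 under all 5 scalings, and reference gene scaling moves each point downward from the deposited values.

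A ratio to Pou5f1 in the same sample is free of any single factor per library, though not of quantile normalization. It was computed for the other 9 members after the values had been seen. Prdm14 was 0.425%, 0.622% and 0.469% of Pou5f1 in untreated replicates 1, 2 and 3 and 0.705%, 1.16% and 0.770% in tamoxifen replicates 1, 2 and 3. These groups did not overlap, and the log2 differences within numbers were 0.73, 0.90 and 0.71. Tbx3 was 1.20%, 2.48% and 2.36% of Pou5f1 in the untreated samples and 0.845%, 1.65% and 1.62% in the tamoxifen samples, lower within each number by a similar amount (-0.51, -0.59 and -0.54). Its groups overlapped, since untreated replicate 1 lay below 2 tamoxifen samples.

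With 3 samples against 3 an exact two-sided permutation test cannot give a p below 0.1, which was the p of the Prdm14 ratio (adjusted over the 9 ratios, 0.72). The Tbx3 ratio had an exact permutation p of 0.3 and the Klf2 ratio, higher within 3 of 3 numbers with a mean log2 difference of 0.41, one of 0.2. The Tfcp2l1 ratio was lower within each number (-0.61, -0.37 and -0.43), with an exact permutation p of 0.4. These tests do not use the numbers. Sign flips within the numbers gave the smallest exact permutation p that 3 pairs allow, 0.25, for Prdm14, Klf2, Tbx3 and Tfcp2l1. Sox2, Esrrb and Zfp42 had the smallest differences in their ratio to Pou5f1, with mean log2 differences of 0.09, -0.07 and -0.05.

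Genes whose levels followed the members were sought among 8437 genes with a mean of at least 5 FPKM, by correlation with the mean centred log2 profile of the 10 over the 6 samples. The 5 closest were Fam118a (r = 0.983), Rasip1 (0.982), Otud1 (0.979), Ftsj1 (0.974) and Tex14 (0.973). Fam118a, for example, was at 10.8, 7.93 and 10.7 FPKM in the untreated samples and at 12.9, 10.9 and 11.8 FPKM in the tamoxifen samples, and was likewise lowest in untreated replicate 2. With 6 samples and this many genes such values are a description, and treatment was not past the threshold with the block for any of the 5 (limma adjusted p = 0.0742 to 0.438).

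The rest of the pluripotency network was examined with the block, since 0 genes of any list passed without it in limma. Its counts are to be read against the 4.33% of all genes called higher and the 6.06% called lower, and those at an unadjusted p under 0.05 against 29.8% of all genes with the block and 4.79% without it. In the list of 15 partner factors, which act beside the members at shared enhancers, Nr0b1 rose and Gbx2 and Myc fell, with a median log2 fold change of -0.02 and an unadjusted p under 0.05 for 6 (1 without the block). Nr0b1, which encodes the nuclear receptor DAX1, went from 17.4, 12.7 and 27.5 FPKM in untreated replicates 1, 2 and 3 to 33.9, 25.3 and 39.7 FPKM (1.77-fold, limma adjusted p = 0.00983). Myc, the proliferation and metabolism factor, was at 11.4, 16.1 and 29.6 FPKM and then at 5.62, 9.04 and 17.3 FPKM, 1.83-fold lower (adjusted p = 0.00489). Gbx2, a homeobox gene induced by LIF, was at 14.3, 13.4 and 23.9 FPKM and then at 6.78, 8.57 and 15.1 FPKM, 1.73-fold lower (adjusted p = 0.0111). The groups overlapped for all 3, which separated only within numbers. The most abundant partners, Mybl2 and Sall4, did not pass (adjusted p = 0.0911 and 0.155).

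Of 16 genes used as markers of the pluripotent state, 3 were higher with the block and 0 lower, and 14 had a positive fold change (median 0.13), while 2 had an unadjusted p under 0.05 without the block and 5 with it, close to the 29.8% of all genes. Dppa3, a maternal factor that protects DNA methylation marks and is heterogeneous in ESCs, went from 45.9, 21.6 and 21.8 FPKM to 132.5, 53.6 and 53.4 FPKM (2.59-fold, limma adjusted p = 0.0018). Fbxo15, an F-box gene long used as an ESC reporter, went from 72.4, 48.5 and 51.4 FPKM to 129.8, 95.4 and 101 FPKM (1.91-fold, adjusted p = 0.00334). In both genes the groups did not overlap. Tcl1, a co-activator of AKT, rose 1.58-fold (adjusted p = 0.0135) with overlapping groups, and the most abundant markers, Dppa5a and Spp1, did not pass (0.147 and 0.221). Dppa3 and Fbxo15 still passed with the block when replicate number 2 was left out, whereas Tcl1 did not.

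Genes of the signalling inputs were mostly at lower values, with a median log2 fold change of -0.24 over 18 and 3 called, all lower. An unadjusted p under 0.05 was found for 10 with the block and 2 without it. Id2, a BMP-responsive inhibitor of helix-loop-helix factors, was at 26.5, 24.6 and 61.0 FPKM and then at 9.82, 13.1 and 25.2 FPKM, 2.29-fold lower (limma adjusted p = 0.00351). Spry4 and Dusp6, feedback inhibitors of FGF and ERK signalling, fell 2.15-fold (adjusted p = 0.00462) and 1.38-fold (0.0373). Spry4 was at 17.0, 22.2 and 37.6 FPKM in untreated replicates 1, 2 and 3 and at 6.46, 12.8 and 16.9 FPKM after tamoxifen, without overlap. The LIF receptor gene Lifr and its effector Stat3 did not pass (adjusted p = 0.119 and 0.261), nor did the STAT3 target Socs3 (0.911) or Ctnnb1 and Spry2 (0.967 and 0.106), the most abundant genes of the list.

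Among 12 genes of the formative and primed states that follow naive pluripotency, Cdh2 and Nes fell with the block (1.86-fold and 1.46-fold, limma adjusted p = 0.00465 and 0.0275), and the median log2 fold change was -0.14. Cdh2, which encodes N-cadherin, was at 7.61, 19.2 and 21.8 FPKM and then at 3.71, 11.02 and 11.9 FPKM, and Nes, an intermediate filament gene of neural progenitors, was at 13.5 to 18.0 FPKM and then at 10.4 to 10.5 FPKM. The DNA methyltransferase genes Dnmt3a and Dnmt3b did not pass, at adjusted p = 0.0505 and 0.827. For Dnmt3b the replicate numbers disagreed, with log2 differences of -0.71, 0.31 and 0.65. An unadjusted p under 0.05 was found for 4 of the 12 with the block, close to the 29.8% of all genes, and for 1 without it.

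Markers of differentiated lineages were the list with the largest median shift. Of 20 listed genes 13 were abundant enough to test, and 6 of the 20 stayed under 1 FPKM in every sample. Cdx2 and Gata6 reached the filter of 0.5 FPKM in untreated samples only, which selects for lower values after tamoxifen, and are left out of the counts. Of the other 11, 6 were lower and 1 (Neurog1) higher with the block, with a median log2 fold change of -0.66. An unadjusted p under 0.05 was found for 8 with the block and 3 without it. Pax6, a neural and eye factor, was at 6.96, 4.33 and 5.64 FPKM and then at 1.13, 1.38 and 2.60 FPKM, 3.32-fold lower (limma adjusted p = 0.0103). Sox1, a neural relative of Sox2, was at 3.66 to 4.06 FPKM and then at 1.67 to 2.39 FPKM (1.95-fold lower, adjusted p = 0.0153). Gata6, a primitive endoderm factor, was at 0.581 to 1.74 FPKM and then at 0.239 to 0.433 FPKM. The summed level of the 20 genes, Cdx2 and Gata6 included, was 39.0 to 48.2 FPKM in untreated and 21.6 to 36.7 FPKM in tamoxifen samples, which do not overlap. The part of differentiated cells in the differences of the members was not tested.

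Markers of the feeder fibroblasts had a median near that of all genes. Of 13 tested, 0 passed with or without the block in limma and 0 had an unadjusted p under 0.05 in either fit, and the median log2 fold change was 0.03. S100a6 and Fn1, the most abundant of them, were at 150.0 to 274 and 56.3 to 143 FPKM, so transcripts of this list were present in all samples. Their summed level overlapped between untreated (284 to 528 FPKM) and tamoxifen samples (345 to 446 FPKM).

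Close relatives of the members were read as a further comparison. Of 38 POU, SOX, KLF, ESRR, T-box, CP2, PRDM and YY1 family genes 31 were tested. Pou2f3 and Tbx1 reached the filter of 0.5 FPKM in 1 group only and are left out of the counts. Of the other 29, 2 were higher and 3 lower with the block, with a median log2 fold change of -0.03. An unadjusted p under 0.05 was found for 7 with the block and 3 without it. Prdm1, which acts with Prdm14 in germ cell specification, went from 1.87, 1.36 and 1.47 FPKM to 3.08, 3.54 and 3.94 FPKM (2.18-fold, limma adjusted p = 0.0131). Klf8 rose 2.12-fold (1.85, 3.27 and 3.33 FPKM to 3.63, 7.23 and 7.75 FPKM, adjusted p = 0.0047). Pou2f3 was at 0.286 to 0.350 FPKM in untreated and 0.876 to 2.11 FPKM in tamoxifen samples, and Tbx1, a relative of Tbx3, at 0.589 to 1.48 FPKM and 0.0719 to 0.236 FPKM. The abundant Klf5, which shares targets with Klf2 and Klf4, did not pass (0.448), nor did Yy1 (0.814).

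These list counts depended on the scaling and on replicate number 2. With the block and reference gene scaling, the genes called lower became 5 of 15 partners and 10 of 18 signalling genes, beside 23.8% of all genes and under a shift of the median of all genes to -0.27. The median of the pluripotency markers turned to -0.13 in that fit. Without replicate number 2 the block called 0 partner factors, 0 formative or primed genes, 0 lineage markers and 0 relatives, beside 0.277% of all genes called higher and 0.331% lower, while 2 pluripotency markers (Dppa3 and Fbxo15) remained higher and 2 signalling genes (Id2 and Spry4) remained lower. The median of the formative and primed genes was -0.30 in that fit and 0.06 without replicate number 1, so its sign depended on the number left out. With the block, the call of Neurog1 was lost with TPM, with or without loci under 300 bp, and with reference gene scaling. It was also lost without replicate number 2 or 3. Lineage markers called lower with the block were 8 of 13, but 6 with quantile normalization and 4 with TPM. Each of these counts includes Cdx2 and Gata6, which the filter favours as lower, so the counts are inflated by them. Without these 2 genes the block called 6 of 11, and with TPM only Pax6 and Sox1 were left. All genes called lower in these 3 fits were 6.06%, 4.51% and 2.59%. Without replicate number 1 the block called 2 formative or primed genes (Dnmt3b and Zic2) higher and 2 fibroblast genes (Acta2 and S100a6) lower.

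**Figure D4:**
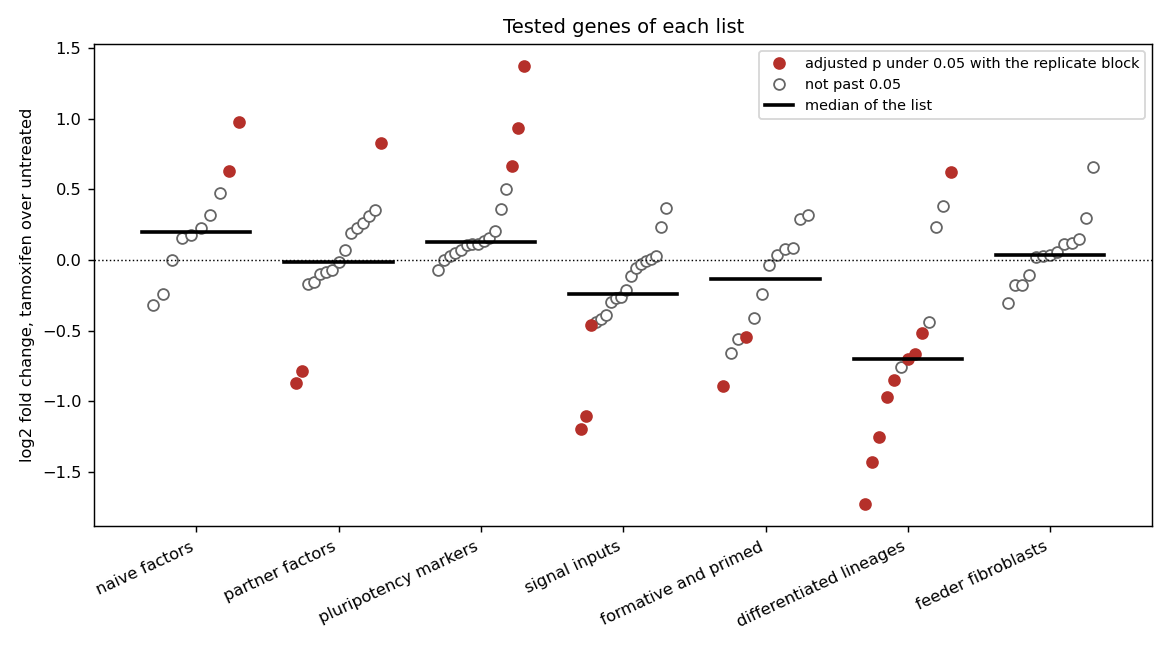
Log2 fold change, tamoxifen over untreated (y axis), of every tested gene in 7 lists (x axis). Filled red points passed an adjusted p of 0.05 with the replicate block and black bars are list medians. The lineage markers have the lowest median, -0.70 as drawn and -0.66 without Cdx2 and Gata6, which passed the filter in untreated samples only. The 10 naive factors have a median of 0.20.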

How the data were processed

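PolyA+ RNA-seq was deposited for 3 untreated and 3 tamoxifen-treated samples of Kdm2b fl/fl ESCs. The authors aligned reads to mm9 with Tophat2 and ran cuffdiff (2.1.1) on refGene models, and deposited 1 FPKM per gene row and sample. The ChIP-seq samples were not analysed here. The confidence intervals in the tables were not used, because 3 or 4 of the members lie outside their own interval in each sample. These were Sox2, Nanog and Klf2 in 6 of 6 samples and Zfp42 in 4. Klf2, called higher with the block, and Nanog, whose groups did not overlap, are thus among them. Their FPKM were used as deposited, and the reason for the mismatch was not tested.

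FPKM were summed by gene name, and 6 of 23369 names with a failed quantification were left out. The 12997 genes with at least 0.5 FPKM in at least 3 of 6 samples entered lmFit and trended eBayes (limma 3.58.1, run under R 4.3.3) as log2(FPKM + 0.1). P-values were adjusted over all of them by Benjamini-Hochberg, with 0.05 as the threshold. A fold change on this scale understates that of low genes. Replicate numbers were taken as pairs because every same-numbered pair correlated above 0.1 (0.506 to 0.605), although the labels do not say what a number marks. The fit was tested on simulated data. Tables and sequences were handled with Python 3.11.15, pandas 2.3.3, numpy 2.4.6 and scipy 1.17.1. Gene positions are mm9, 1-based, from the tables, and promoter windows are GRCm38.p6 from RefSeq.

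The members and gene lists were chosen with earlier results of these data known, and 2 listed genes are not reported here. Named genes are all members, Kdm2b, genes overlapping a member, up to 4 genes per list past the threshold with the block and the 2 with the highest mean FPKM, and the 5 genes most like the members. Lifr, Stat3, Socs3, Utf1 and Neurog1 were chosen after their values were seen. Alternatives were pseudocounts of 1 and 0.01, other filters, TPM, TPM without loci under 300 bp, quantile normalization, reference gene scaling, the highest row per gene name, eBayes without a trend, the replicate block, and leaving out each sample or number. The log2 ratio of group mean FPKM was a further alternative. It gives no p, so the ranges of adjusted p over the alternatives leave it out. The ratios to Pou5f1, the ratio of Klf2 to Klf4, sign flips within numbers, list counts without genes that passed the filter in 1 group only, the block with another pseudocount, filter or TPM, and leaving out a number in the F test were added after seeing the data.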

Additional observations from a re-analysis of the deposited data

How the results depend on the processing

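Without the replicate block, 0 members passed in either direction under each alternative. The block gave 2 higher members, as it did with a pseudocount of 1 or 0.01 or with TPM without loci under 300 bp, 3 with TPM or with at least 1 FPKM in all 6 samples (Nanog added), and 1 (Prdm14) with quantile normalization, reference gene scaling or no filter. All genes called higher were 4.33% with the block, 5.07% and 4.00% with those pseudocounts and 2.39% with TPM without short loci. With TPM they were 3.32%, and with at least 1 FPKM in all samples 7.50%. Quantile normalization gave 4.29%, reference gene scaling 1.75% and no filter 0.886%. Leaving out samples gave 0 to 3. The block fits without replicate number 1, 2 and 3 gave 3, 0 and 2, beside 5.72%, 0.277% and 2.76% of all genes called higher. Lower members were 0, except 2 with the block and reference gene scaling, in which 23.8% of all genes were lower. The members' median was -0.057 with reference gene scaling, with or without the block, and -0.005 (without untreated replicate 2) to 0.338 when samples were left out. Reference gene scaling turned Pou5f1 to -0.031, Esrrb to -0.103 and Zfp42 to -0.082 in both fits. Leaving out single samples gave Pou5f1 -0.016 to 0.435 (negative without untreated replicate 2 or tamoxifen replicate 1), Esrrb -0.074 to 0.275 (without untreated replicate 2) and Zfp42 -0.021 to 0.291 (without tamoxifen replicate 1). With the block, leaving out numbers gave Esrrb -0.048 (without number 2) to 0.293. Members differing between replicate numbers were 1 with no filter, 6 with at least 1 FPKM in all samples, 9 with TPM and 0 with quantile normalization, beside 36.4%, 73.9%, 68.5% and 58.3% of all genes. With a number left out they were 1 to 4, beside 42.6%, 35.0% and 46.6% of all genes without number 1, 2 and 3. The causes were not tested. Nanog, Klf2, Sox2 and Prdm14 kept a positive and Tbx3 and Tfcp2l1 a negative fold change under all alternatives run. With 3 samples per group and no read counts, precision rests on the spread between samples alone.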
